A study of Mus musculus with 8 samples.

Results

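A set of 10 noncoding RNA genes, of which Malat1 and Neat1 are abundant in these mouse livers, was compared between livers labelled HuR WT and HuR KO: Malat1 and Neat1, which stay in the nucleus, and the small nucleolar RNA (snoRNA) host genes Gas5, Snhg1, Snhg3, Snhg5, Snhg6, Snhg8, Snhg12 and Dancr. They were chosen as a list of names, with earlier results of these data known. Of these 10 genes, 9 were matched by gene identifier to a row among the 45706 gene rows of the count table, and 8 had enough reads to be tested among 14645 genes. Snhg1 had no matched row and its host transcript is not analysed here. Dancr had too few reads.

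The study sequenced liver RNA of 8 C57BL/6 mice, with 4 mice of genotype HuR WT and 4 of genotype HuR KO and 1 library per mouse. HuR, encoded by Elavl1, is an RNA-binding protein that recognises U-rich and AU-rich stretches. No treatment is labelled, and the sources used here do not give the deleted part of the gene, the cells in which it was deleted or the age of the mice. Messenger RNA was enriched before reverse transcription, a step that can disfavour RNAs without a poly(A) tail.

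Malat1 and Neat1 are long RNAs that gather proteins in the nucleus. Malat1 lies in nuclear speckles, bodies rich in splicing factors, and the long form of Neat1 is the scaffold of paraspeckles. The other 8 genes carry snoRNAs in their introns. Splicing releases the snoRNAs, which guide ribose methylation (box C/D class) or pseudouridylation (box H/ACA class) of ribosomal RNA, while the spliced host RNA is exported and, for several hosts, is degraded by nonsense-mediated decay when it is translated. Many such hosts start with a pyrimidine tract, as ribosomal protein mRNAs do.

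The 3′ ends of Malat1 and Neat1 are shown first because Malat1 and the long form of Neat1 are known to end without a poly(A) tail. In both, a U-rich stretch and an encoded A-rich tract form a triple helix in place of a poly(A) tail. The sequences are from GENCODE M21 transcripts on GRCm38, which is mm10, both on the minus strand of chromosome 19. Capitals mark 2 words that the transcripts share, the U-rich TTTTGCTTTT and the A-rich AAAAAGCAAAA, which were picked after the sequences had been read.
Malat1, chr19:5795982-5796101: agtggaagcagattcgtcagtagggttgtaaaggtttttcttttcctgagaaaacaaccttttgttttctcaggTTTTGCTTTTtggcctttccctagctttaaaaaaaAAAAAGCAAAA
Neat1, long transcript, chr19:5824708-5824827: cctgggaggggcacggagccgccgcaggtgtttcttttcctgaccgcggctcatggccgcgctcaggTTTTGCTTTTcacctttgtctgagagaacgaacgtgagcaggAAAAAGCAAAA
The words stand 25 bases apart in Malat1 and 32 in Neat1. The Neat1 model of 20771 bases ends with the A-rich word, whereas the Malat1 model of 6983 bases goes on for another 292 bases, so that the Malat1 row also covers what lies downstream of the tract. Of the longest transcript models of 14596 tested genes, searched on the transcribed strand, 2.49% held the U-rich word and 1.08% the A-rich one. Malat1 and Neat1 were the 2 that held the U-rich word followed by the A-rich word within 120 bases. The short Neat1 transcript of 3004 bases holds neither word. It ends in chr19:5842307-5842366 with the polyadenylation signal AATAAA, in capitals, 20 bases before its end:
Neat1, short transcript: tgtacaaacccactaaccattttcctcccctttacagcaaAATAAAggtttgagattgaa
The long and short forms overlap and share 1 row of the table, so the counts cannot separate them.

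The starts of the snoRNA hosts are shown because all tested hosts had lower means in KO in the comparison below. RefSeq promoter windows (GRCm38.p6) were matched for 8 of the 10 genes, not for Neat1 and Snhg6. Each line gives 30 bases before the annotated start and 30 from it on, in the direction of transcription, with capitals for the longest pyrimidine run between 10 bases before and 20 bases after the start, cut at these bounds. Gas5 has 2 annotated starts, of which the downstream one is shown.
Gas5, chr1:161035136-161035195, plus strand: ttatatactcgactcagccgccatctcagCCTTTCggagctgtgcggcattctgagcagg
Snhg1, chr19:8723457-8723516, plus strand: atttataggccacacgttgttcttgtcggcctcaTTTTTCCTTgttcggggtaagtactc
Snhg3, chr4:132353657-132353716, minus strand: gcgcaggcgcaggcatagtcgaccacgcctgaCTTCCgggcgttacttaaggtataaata
Snhg5, chr9:88522868-88522927, minus strand: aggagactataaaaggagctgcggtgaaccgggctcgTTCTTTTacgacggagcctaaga
Snhg8, chr3:123508307-123508366, minus strand: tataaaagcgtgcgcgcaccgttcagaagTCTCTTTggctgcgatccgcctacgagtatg
Snhg12, chr4:132308648-132308707, plus strand: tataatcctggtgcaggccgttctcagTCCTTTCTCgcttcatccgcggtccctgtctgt
Dancr, chr5:74093030-74093089, plus strand: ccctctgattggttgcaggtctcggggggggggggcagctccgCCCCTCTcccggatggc
Within these bounds Snhg1 and Snhg12 had the longest runs, of 9 pyrimidines each. Snhg5, Snhg8 and Dancr had runs of 7, of which that of Dancr goes on past the bound in lower case, Gas5 one of 6 and Snhg3 one of 5. Of the 8 host windows, the upstream Gas5 start included, 7 held a run of at least 5, as did 46.4% of all 32851 promoter windows. The run in Malat1 was 4 long. Counted from the annotated start itself, the run was 6 in Snhg8 and Snhg12, 5 in the Gas5 window shown and 3 in Snhg1. It was 0 in Snhg3, Snhg5 and Dancr, whose annotated first base is G. The letters TATA stood on the transcribed strand between 40 and 16 bases before the start in 5 of the 8 host windows, those of Gas5, Snhg1, Snhg5, Snhg8 and Snhg12, against 5.91% of all windows. These are matches of letters and not measured binding or start sites.

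Total counts per library ranged from 18649618 to 31249286. Elavl1 was counted at 32.7 to 46.6 CPM (the count over library size, scaled by the trimmed mean of M values) in the libraries labelled WT and at 45.6 to 56.0 CPM in those labelled KO (edgeR adjusted p = 0.258), and since the deleted part is not given, this does not check the labels. WT replicate 3 stood apart: its mean root-mean-square difference over all tested genes was 0.597 log2 units from the other WT libraries and 0.586 from the KO libraries. The animal numbers in the titles form a pair of series, of which numbers 98 to 100 hold WT replicate 3 and KO replicates 3 and 4. Mitochondrial genes took 5.30% to 6.46% of the counts in WT and 6.60% to 7.66% in KO. The 12 hepatocyte markers, of which 0 were called and 1 had an unadjusted p under 0.05, summed to 139870 to 154526 CPM and 124935 to 150882 CPM in WT and KO, as liver would give. Of 14 bile duct markers 11 rose and 0 fell, and their sum was 72.6 to 97.8 CPM in WT and 207 to 313 CPM in KO. Of 12 stellate cell markers 3 rose (461 to 496 and 546 to 638 CPM), and of 12 endothelial, 12 macrophage and 9 lymphocyte markers none was called, with 2, 1 and 1 at an unadjusted p under 0.05. The log2 fold change of KO over WT was negative for 8 of the 9 lymphocyte markers (median −0.39), and for 4 of 12 endothelial and 4 of 12 macrophage markers. The 12 listed lymphocyte markers summed to 13.6 to 27.7 CPM in WT and 11.7 to 14.6 CPM in KO. No marker of these lists was at 0 in all libraries. In bulk liver, fewer cells of a type and less RNA per cell cannot be told apart, and the part of these cells in the results below was not tested.

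Malat1 was the most abundant of the set per exon length of its row. Levels between genes were compared as CPM per kilobase of the exon length in the table. Malat1 (ENSMUSG00000092341, mm10 chr19:5795690-5802672, minus strand, 1 exon block of 6983 bases) was at 200 ± 16.7 CPM per kilobase (SD, n = 8 libraries), rank 232 among the tested genes. Its reads made up 0.124% to 0.163% of all counts in a library. Neat1 (ENSMUSG00000092274, chr19:5824708-5845478, minus strand, 20771 bases in 1 block) followed at 24.1 ± 5.82, with Malat1 8.30 times higher, above it in 8 of 8 libraries and without overlap of the ranges. The ratio of Malat1 to Neat1 per kilobase ran from 5.99 in KO replicate 1 to 12.7 in WT replicate 1. Because the short Neat1 form covers a small part of this length, 3004 of 20771 bases, the per-kilobase level of Neat1 is a mean over a mixed row. How far Malat1 stood above Neat1 therefore depends on which length is used.

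Among the snoRNA hosts, Snhg8 and Gas5 had the highest levels per length and Snhg5 the lowest of those tested. Snhg8 (ENSMUSG00000104960, chr3:123507552-123508404, minus strand) was at 15.6 ± 2.87 CPM per kilobase and Gas5 (ENSMUSG00000053332, chr1:161034422-161038539, plus strand) at 14.1 ± 2.34 (SD, n = 8 libraries). These neighbours in the order did not differ beyond their spread, with Snhg8 above Gas5 in 5 of 8 libraries. Neat1 was above Snhg8 in 7 of 8 libraries, with overlapping ranges. Below Gas5, without overlap, came Snhg6 (ENSMUSG00000098234, chr1:9941959-9944118, minus strand) at 7.92 ± 1.80. Snhg3 (ENSMUSG00000085241, chr4:132348014-132353686, minus strand) was at 5.20 ± 1.69, Snhg12 (ENSMUSG00000086290, chr4:132308678-132311024, plus strand) at 4.11 ± 1.25 and Snhg5 (ENSMUSG00000097195, chr9:88521050-88522929, minus strand) at 2.94 ± 0.869 CPM per kilobase. From Snhg6 to Snhg5 the ranges of neighbours overlapped, but by full exon length each gene was above the next in 8, 8 and 7 of 8 libraries. Reads over exon bases shared with another row on the same strand were assigned to neither. The unshared bases were 692 of 986 in Snhg3, 1293 of 1626 in Snhg12 and 1146 of 1146 in Snhg6. The order of Snhg6, Snhg3 and Snhg12 therefore depends on which length is used. The row of Gas5 has 3760 exon bases in a span of 4118, while its longest GENCODE M21 transcript without a retained intron has 665 bases, so its level per kilobase depends on which length is used.

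Neither nuclear RNA changed by the test. Malat1 was at 1629, 1372, 1359 and 1282 CPM in WT replicates 1 to 4 and at 1421, 1268, 1348 and 1474 CPM in KO replicates 1 to 4. The groups overlapped, with KO replicate 2 just below the WT range and the other KO libraries within it, and the means were 1410 ± 151 and 1378 ± 89.5 CPM (SD, n = 4 each). By edgeR's quasi-likelihood test, adjusted over all genes by the Benjamini-Hochberg method, the log2 fold change of KO over WT was −0.03 (SE 0.11, adjusted p = 0.917). Its unadjusted 95% interval ran from −0.27 to 0.20. With totals alone as scaling it was 0.03, without WT replicate 1 it was 0.04 and among animals numbered 98 to 100 it was 0.05, so its sign differed among the settings.

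Neat1 was the 1 member of the 8 with a higher mean in KO. It was at 382, 491, 572 and 338 CPM in WT replicates 1 to 4 and at 705, 445, 464 and 601 CPM in KO replicates 1 to 4. KO replicates 1 and 4 lay above every WT library, whereas KO replicates 2 and 3 lay within the WT range. The means were 446 ± 106 and 554 ± 123 CPM (SD, n = 4 each), a log2 fold change of 0.31 (SE 0.18, edgeR adjusted p = 0.412, unadjusted 95% interval −0.09 to 0.72). Without WT replicate 3 it was 0.46 (adjusted p = 0.131), without KO replicate 1 it was 0.17 (adjusted p = 0.7) and without WT replicate 4 it was 0.20 (adjusted p = 0.626). In the series of 4-digit animal numbers it was 0.51, and in the series 98 to 100, whose WT group is a single library, it was −0.12 with no test. Its coefficient of variation within a group, 23.8% in WT and 22.1% in KO, was over the 10.7% and 6.50% of Malat1, and its counts of 6096 to 18226 leave a counting error of at most 1.28%.

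**Figure D1:**
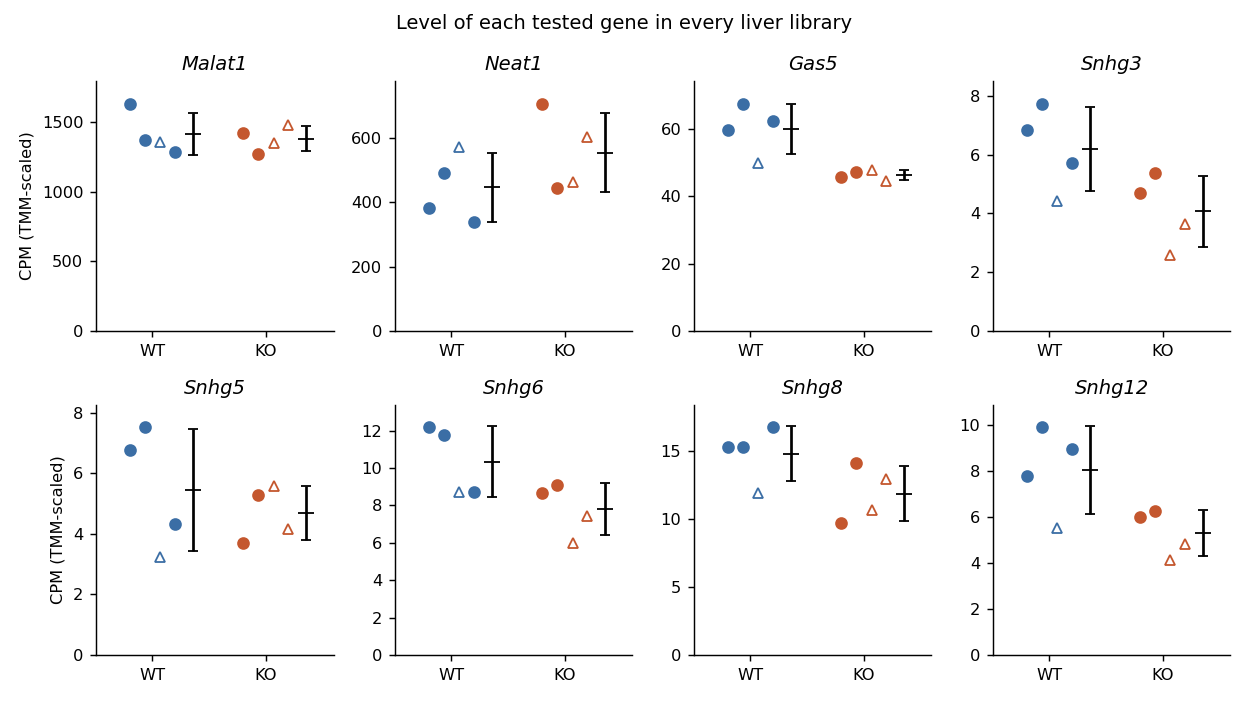
Level of each of the 8 tested genes in CPM (y axes start at 0) in the 4 libraries labelled WT and the 4 labelled KO, with the mean and SD in black; circles are animals with 4-digit numbers and open triangles those numbered 98 to 100. For Gas5 all KO points, 44.6 to 47.8 CPM, lie below all WT points, 49.9 to 67.5 CPM, and for the other genes the groups overlap.

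All 6 tested snoRNA hosts had a lower mean in KO, and none passed the test over all genes. Together with Malat1 this made 7 of 8 members with a negative log2 fold change, against 50.8% of all genes. At an edgeR adjusted p under 0.05, 0 of the 8 tested members were called, against 3.69% of all genes (2.32% higher and 1.37% lower). At an unadjusted p under 0.05, 4 of the 6 hosts were lower, against 8.84% of all genes, and the median log2 fold change of the 6 was −0.39, against −0.0046 over all 14645 genes. The hosts varied together over the 8 libraries, with a positive Pearson correlation of log2 CPM in 15 of 15 pairs. The median correlation was 0.70, and 0.49 for deviations from the group means, so the hosts do not count as separate results. Because the set was chosen with earlier results of these data known, these shares describe it and do not test it. By DESeq2, 1 member was called lower, Gas5, with 495 of the 14645 genes called lower and 613 higher. By limma-voom 0 members were called, with 181 genes lower and 324 higher.

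Gas5, the host of several box C/D snoRNAs that was found as an RNA accumulating in growth-arrested cells, came nearest to a call. It was at 59.9, 67.5, 49.9 and 62.6 CPM in WT replicates 1 to 4 and at 45.8, 47.2, 47.8 and 44.6 CPM in KO replicates 1 to 4. Every library labelled KO was below every one labelled WT, as for 5.01% of all tested genes, and WT replicate 3 was the WT library nearest to them. The means were 60.0 ± 7.42 and 46.3 ± 1.44 CPM (SD, n = 4 each), 1.29-fold lower in KO. The log2 fold change was −0.37 (SE 0.10, unadjusted 95% interval −0.58 to −0.16, edgeR adjusted p = 0.0505). That value lies at the threshold: without WT replicate 3 the log2 fold change was −0.45 with adjusted p = 0.00598, with relative log expression scaling adjusted p was 0.0477 and by DESeq2 0.0185, while without any 1 of the other 7 libraries it was 0.0814 to 0.169, the highest without WT replicate 2. The fit without WT replicate 3 called 537 of 14645 genes lower, against 201 with all 8 libraries. Among the animals numbered 98 to 100 the log2 difference of Gas5 was −0.11, with 1 WT library and no test.

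Snhg12 and Snhg3 had the lowest fold changes of the set. Snhg12, which carries Snora16a, Snora44, Snora61 and Snord99, was at 7.80, 9.91, 5.52 and 8.98 CPM in WT replicates 1 to 4 and at 6.00, 6.28, 4.12 and 4.81 CPM in KO replicates 1 to 4. WT replicate 3 lay among the KO values and the other WT libraries lay above all of them. The log2 fold change was −0.60 (SE 0.20, edgeR adjusted p = 0.125, unadjusted 95% interval −1.03 to −0.16), and without WT replicate 3 it was −0.74 with adjusted p = 0.0235. It was −0.48 without WT replicate 2 (adjusted p = 0.351), −0.50 without KO replicate 3 (adjusted p = 0.307) and −0.31 among the animals numbered 98 to 100, with no test.

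Snhg3, which hosts the H/ACA snoRNAs Snora73a and Snora73b, was at 6.85, 7.73, 4.43 and 5.71 CPM in WT replicates 1 to 4 and at 4.68, 5.37, 2.60 and 3.65 CPM in KO replicates 1 to 4. Again WT replicate 3 lay among the KO values. Its log2 fold change was −0.60 (SE 0.24, edgeR adjusted p = 0.2, unadjusted 95% interval −1.11 to −0.08), and without WT replicate 3 it was −0.73 with adjusted p = 0.067. It was −0.44 without KO replicate 3 (adjusted p = 0.419), −0.47 without WT replicate 2 (adjusted p = 0.459) and −0.51 among the animals numbered 98 to 100, with no test. It was counted 67 to 188 times per library, so counting error alone is 12.2% at the lowest count.

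The other 3 tested hosts differed by less. Snhg6, the host of Snord87, was at 8.71 to 12.2 CPM in WT and 5.98 to 9.12 CPM in KO, with a log2 fold change of −0.41 (SE 0.17, edgeR adjusted p = 0.223). Snhg8, the host of Snora24, was at 11.9 to 16.7 CPM in WT and 9.72 to 14.1 CPM in KO, with −0.32 (SE 0.15, edgeR adjusted p = 0.283). Snhg5, the host of Snord50a and Snord50b, was at 3.24 to 7.52 CPM in WT and 3.72 to 5.59 CPM in KO, with −0.22 (SE 0.26, edgeR adjusted p = 0.71), and the KO values lay within the WT range. Among the animals numbered 98 to 100 its difference was 0.57, and without WT replicate 2 its log2 fold change was −0.03. Without WT replicate 3 the log2 fold changes of Snhg6, Snhg8 and Snhg5 were −0.48, −0.41 and −0.41 (edgeR adjusted p = 0.108, 0.101 and 0.286). Snhg6 was at −0.30 without KO replicate 3 and Snhg8 at −0.23 without KO replicate 1. Among the animals numbered 98 to 100, Snhg6 was at −0.38 and Snhg8 at −0.022, with no test.

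**Figure D2:**
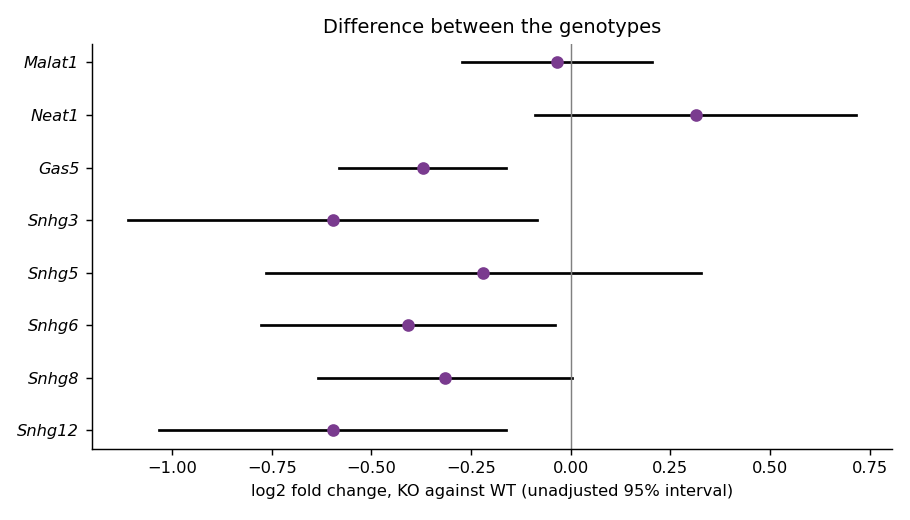
Log2 fold change of each tested gene, KO against WT, on the x axis, with bars for the unadjusted 95% interval from edgeR over 8 libraries. The intervals of Gas5, Snhg3, Snhg6 and Snhg12 lie below 0 and those of Malat1, Neat1, Snhg5 and Snhg8 include it.

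WT replicate 3 had the lowest level of the 4 WT libraries for 5 of the 6 hosts, the exception being Snhg6. Their summed level was 83.8 CPM in WT replicate 3, 108 to 120 CPM in the other WT libraries and 76.7 to 87.3 CPM in the KO libraries, so by this sum WT replicate 3 lay within the KO range. KO replicate 3 or 4, of the same number series, was the lowest KO library for 4 of the 6 hosts. KO replicates 1 and 2 are the only other KO libraries and the hosts vary together, so this count does not show a pattern of the series. With the number series as covariate the edgeR log2 fold changes were −0.33 for Gas5, −0.45 for Snhg3 and −0.45 for Snhg12. For Snhg6, Snhg8 and Snhg5 they were −0.33, −0.26 and −0.11. Each was smaller in size than without the covariate, and no member was called.

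**Figure D3:**
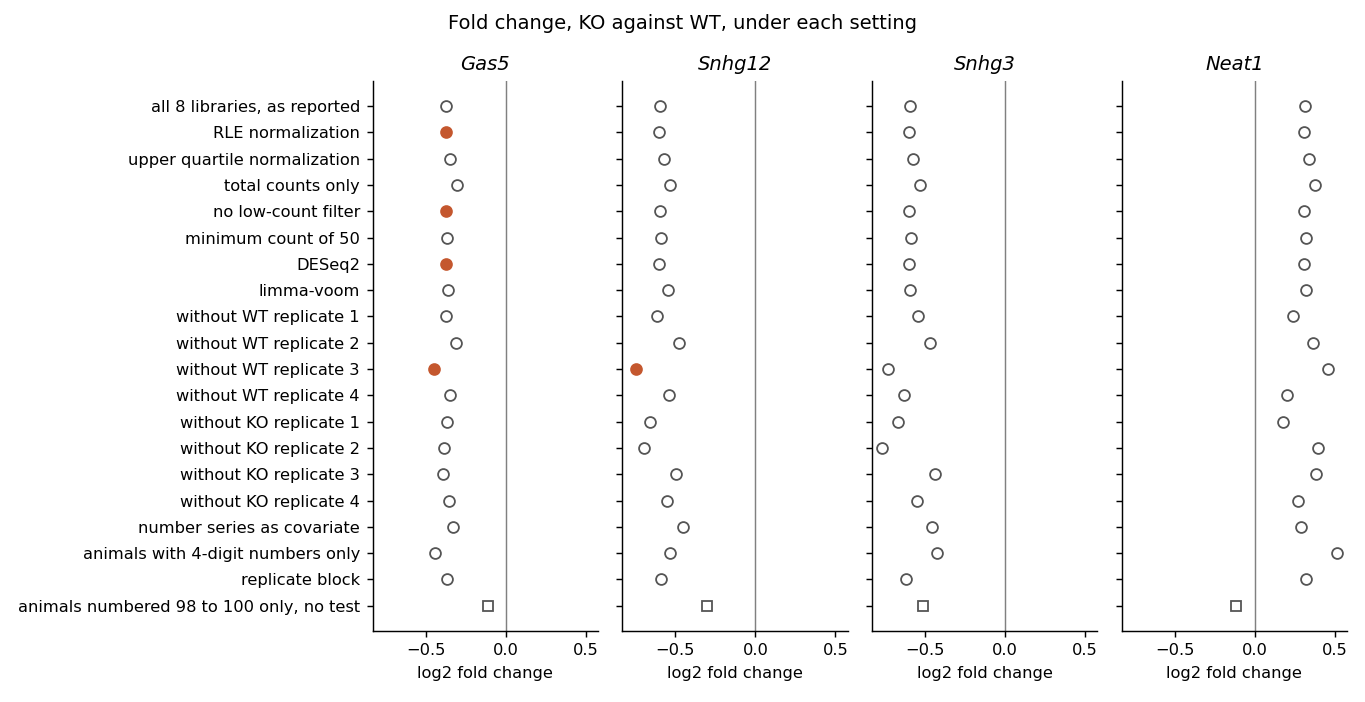
Log2 fold change of Gas5, Snhg12, Snhg3 and Neat1, KO against WT (x axes), under each way of processing the counts (rows); filled points passed an adjusted p under 0.05 and squares have no test. Gas5 passed in 4 of the settings and Snhg12 in 1, and Neat1 changes sign among the animals numbered 98 to 100.

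The read counts of several hosts rest on part of their exons, because reads over exons that 2 genes share on the same strand were assigned to neither. Dancr (ENSMUSG00000106943, chr5:74093060-74095406, plus strand), the host of Snora26, is the clearest case. It was counted 3, 8, 2 and 10 times in WT replicates 1 to 4 and 2, 0, 0 and 9 times in KO replicates 1 to 4. A second row (ENSMUSG00000053656) covers 44.4% of its exon bases on the same strand and was at 0 in all libraries. That row covers 100% of the 575-base spliced Dancr model of GENCODE M21. A count of 0 allows up to 3 counts, or 0.104 CPM in KO replicate 2 and 0.117 CPM in KO replicate 3, and this limit covers counting error only. These counts therefore say little about the level of Dancr, and no fold is given.

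Rows for embedded snoRNAs and other models covered 29.8% of the exon bases of Snhg3, 20.5% of Snhg12, 17.8% of Gas5, 15.2% of Snhg8 and 8.32% of Snhg5 on the same strand, but 1.85% of Neat1, 1.23% of Malat1 and 0% of Snhg6. For Snhg3 they include 135 bases shared with Rcc1, a guanine nucleotide exchange factor gene that overlaps it on the same strand. Rcc1 itself was at 5.83 ± 0.57 and 5.16 ± 0.524 CPM in WT and KO (SD, n = 4 each, log2 fold change −0.18, edgeR adjusted p = 0.632).

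For Snhg1, 8 snoRNA rows lie inside its span in GENCODE M21 (chr19:8723475-8726443, plus strand), among them Snord22. Together they were counted 70, 74, 59 and 33 times in WT replicates 1 to 4 and 40, 75, 38 and 83 times in KO replicates 1 to 4, 236 times in each group. Snord22, counted 15 to 32 times, was the most counted of them. Snora73b in Snhg3 was counted 1 to 26 times, whereas the 10 rows of GENCODE type snoRNA in Gas5, 1 of which has the microRNA symbol Mir5117 and 2 of which overlap and share the symbol Snord80, and the 5 such rows in Snhg12, 2 in Snhg5 and 1 each in Snhg8 and Dancr were at 0 in all libraries. SnoRNAs have no poly(A) tail, and a read over a snoRNA row that lies inside an exon of its host's row is assigned to neither, so these counts do not measure snoRNA output.

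Neighbouring genes were looked at to place the host levels in their regions. The nearest tested gene on either side of each member was called in 1 case, Tcf24, a transcription factor gene 16045 bases from Snhg6 at higher coordinates on the same strand. Tcf24 rose from 6.52, 5.22, 8.66 and 4.82 CPM in WT replicates 1 to 4 to 16.5, 14.5, 12.9 and 10.9 CPM in KO replicates 1 to 4, with no overlap (log2 fold change 1.11, SE 0.19, edgeR adjusted p = 0.00524), while Snhg6 had a lower mean. Its call held in all 18 alternatives that gave a test. Zbtb37, which overlaps Gas5 on the opposite strand without shared exon bases, was at a log2 fold change of 0.10 (edgeR adjusted p = 0.816). Trnau1ap, 739 bases from Snhg12 on the opposite strand, was at 0.03 (adjusted p = 0.948), and Frmd8, next to Neat1 at higher coordinates, was at 0.05 (edgeR adjusted p = 0.904).

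Other genes that host snoRNAs also had negative median fold changes, with 1 call among them. Of 8 tested noncoding hosts outside the set, 0 were called by edgeR and 1 had an unadjusted p under 0.05 (12.5%, against 18.0% of all genes). Of these 8, 6 had a negative log2 fold change, with a median of −0.41 over the 8. Snhg18, which was at 1.05 ± 0.495 CPM in WT and 2.44 ± 0.514 CPM in KO (SD, n = 4 each), had the opposite sign at 1.23 (edgeR adjusted p = 0.0841), and Snhg20 was at −0.45 (adjusted p = 0.289). Of 34 tested protein-coding hosts, mostly genes of ribosomal proteins and translation factors, 1 fell and 0 rose, against 3.69% of all genes called, 8 had an unadjusted p under 0.05 (23.5%, against 18.0% of all genes), and 28 had a negative log2 fold change (median −0.12). The one that fell was Rpl5, a protein of the large ribosomal subunit, from 11.0 ± 0.945 to 7.32 ± 1.18 CPM (SD, n = 4 each, log2 fold change −0.58, edgeR adjusted p = 0.045). Rpl5 lost its call in 9 of 18 alternatives, among them those without WT replicate 1, 2 or 4 and without KO replicate 1, 3 or 4 (adjusted p 0.0702 to 0.134), and as a gene with many near-identical copies its level is uncertain. Without WT replicate 3, 5 of the 34 fell: Rpl5, Rpl7a, Rps20, Ncl and Nop56. In that fit 537 of all 14645 genes fell, against 201 with all 8 libraries.

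The proteins that assemble with snoRNAs showed no shared direction. Of 18 tested, 0 were called, 10 were positive and 8 negative, with a median of 0.01. Ruvbl2, an ATPase of the assembly complex, was at 0.39 and Nop56, a core protein of box C/D particles and itself a host, at −0.37 (edgeR adjusted p = 0.161 and 0.195). Of 17 genes of nonsense-mediated decay 0 were called, with a median of −0.07, and Upf3b and Upf3a, paralogous factors that link decay to exon junctions, were at −0.31 and −0.30 (edgeR adjusted p = 0.103 and 0.223). Unadjusted p was under 0.05 for 3 and 2 members of these lists, 16.7% and 11.8% of them, against 18.0% of all genes.

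Among partners of the nuclear RNAs, 1 gene fell. Of 18 paraspeckle protein genes 0 were called by edgeR over the 8 libraries, with 5 at an unadjusted p under 0.05 and a median of −0.13. Matr3, an RNA-binding protein of the nuclear matrix, had a log2 fold change of −0.32 (edgeR adjusted p = 0.0673), and it fell without WT replicate 3. Of 17 nuclear speckle genes 1 fell and 0 rose, with 7 at an unadjusted p under 0.05 and a median of −0.13. These unadjusted shares were 27.8% for the paraspeckle list and 41.2% for the speckle list, against 18.0% of all genes. That gene was Clk1, a kinase that phosphorylates splicing factors, which fell from 117 ± 16.5 to 75.3 ± 9.80 CPM (SD, n = 4 each, log2 fold change −0.64, SE 0.12, edgeR adjusted p = 0.0082), and it passed in all 18 alternatives with a test. Of 26 genes of RNA end processing 0 were called and 4 had an unadjusted p under 0.05 (15.4%, against 18.0% of all genes). Rpp40, a protein of the ribonuclease P complex that cuts the Malat1 end, was at −0.70 (edgeR adjusted p = 0.0534). Of 21 other long noncoding RNAs 0 were called by edgeR and 3 had an unadjusted p under 0.05 (14.3%, against 18.0% of all genes). Their median was −0.19, with Mir17hg at −0.51 (edgeR adjusted p = 0.205).

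**Figure D4:**
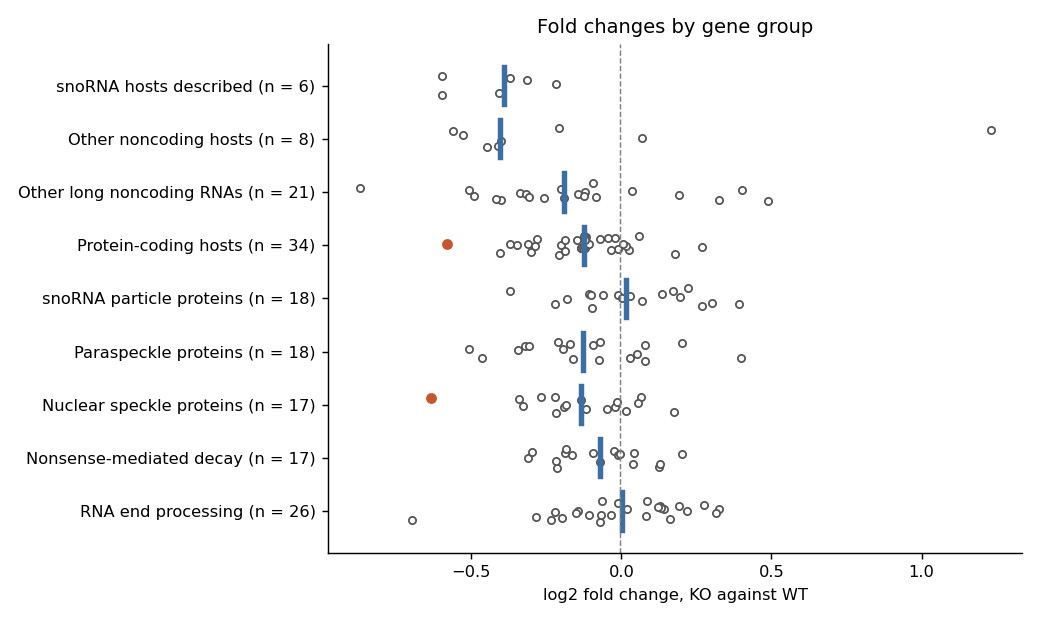
Log2 fold change, KO against WT (x axis), of every tested gene in the 6 snoRNA hosts and 8 other gene groups (rows); filled points passed an edgeR adjusted p under 0.05, blue bars are medians and the dashed line is the median of all genes. The medians of both noncoding host groups, −0.39 and −0.41, lie below those of the other groups, and the filled points are Rpl5 and Clk1.

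AU-rich and U-rich words were counted in the longest GENCODE M21 transcript without a retained intron of each gene, since HuR binds such stretches; a match is not a measured site. Searched on the transcribed strand with overlaps allowed, ATTTA occurred 12 times in Malat1 and 21 times in Neat1, or 1.72 and 1.01 per kilobase, against a median of 0.794 over 14596 tested genes. TTTTTTT occurred 12 and 52 times in them, or 1.72 and 2.50 per kilobase, and was found in 44.4% of all these transcripts. Gas5 and Snhg3 held neither word in 665 and 581 bases. Snhg5 and Snhg8 held TTTTTTT 6 and 5 times and ATTTA 0 times, and Snhg6 and Snhg12 held ATTTA 1 time each and TTTTTTT 0 times. ATTTA was found in 77.2% of all these transcripts. Per kilobase, TTTTTTT was denser in Snhg5 and Snhg8 than in 98.1% and 99.4% of the tested genes. The 665-base model of Gas5 is shorter than the 3760 exon bases of its counted row. Whether these words bear on the levels was not tested.

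The genes whose levels across the 8 libraries were most like those of 3 members were found by Pearson correlation of log2 CPM among 9746 genes with a mean log2 CPM of at least 2. For Gas5 they were Pes1 (r = 0.98), Eif1 (0.97) and Zc3h8 (0.96). Of these, the translation initiation factor gene Eif1 fell, from 104 ± 15.1 to 71.0 ± 5.10 CPM (SD, n = 4 each, log2 fold change −0.56, edgeR adjusted p = 0.0121), a call lost without WT replicate 2, KO replicate 3 or KO replicate 4 (adjusted p 0.0512 to 0.0527). For Neat1 they were Sptbn1 (0.97), Pcnx (0.97) and Pfas (0.97), and for Malat1 Coro1a (0.93), Ggps1 (0.93) and Fosl2 (0.91), of which none was called. These are the highest of many correlations over 8 libraries and are given as a description.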

How the data were processed

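The deposited values are raw counts per gene, made by the authors with featureCounts 1.5.1 on Ensembl 81 gene models of mm10, reversely stranded, with a minimum mapping quality of 1 and no option for multi-mapping or multi-overlapping reads, per the file headers. The submitters' processing notes also name bcl2fastq 2.19.1 and GSNAP. Identifiers were paired with symbols for 45143 of 45706 gene rows, and 92 spike-in rows were at 0 in all libraries. Genes were filtered by filterByExpr (minimum count 10), scaled by TMM and tested with edgeR 4.0.16 (quasi-likelihood, robust; R 4.3.3) with Benjamini-Hochberg adjustment over 14645 genes; genes under 0.05 were called. Log2 CPM used a prior count of 2, and SEs come from the F statistic. Alternatives used DESeq2 1.42.0 and limma 3.58.1. The edgeR step was tested on simulated data. The members and lists were chosen with earlier results of these data known. Genes named besides the members were tested neighbours, called list members or, where none was called, those with the smallest p, and the 3 most alike genes. Replicates are separate mice, and no pair of libraries was a duplicate (chi-square over degrees of freedom of at least 16.7). Some named genes are not reported here.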

Additional observations from a re-analysis of the deposited data

How the results depend on the processing

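Of 144 values of the 8 members under 18 alternatives with a test, 137 kept direction and side of the threshold. Since 0 members were called with all 8 libraries, keeping the side means staying uncalled. With animals 98 to 100, which give no test, the 6 hosts were negative in 113 of 114 values. All these values re-use the same 8 libraries, so the tallies do not measure repeatability. Members called lower numbered 1 with relative log expression scaling, without a low-count filter and by DESeq2, each time Gas5, and 0 to 2 when single libraries were left out, with 2, Gas5 and Snhg12, without WT replicate 3. Malat1 turned to 0.029 with totals only and to 0.052 among animals 98 to 100, and ran from −0.077 to 0.038 when single libraries were left out, positive without WT replicate 1. Animals 98 to 100 were also the setting in which Neat1 turned to −0.12 and Snhg5 to 0.57, with Snhg8 at −0.022. Over all genes, 340 were called higher and 201 lower. Lower calls were 123 with totals only, 328 without a filter and 308 with the number series as covariate. DESeq2 called 613 higher and 495 lower, and the 4-digit animals alone gave 208 higher. Leaving out single libraries gave 154 to 697 higher, the fewest without KO replicate 3, and 72 to 537 lower, the fewest without WT replicate 2 and the most of both without WT replicate 3. The cause was not tested. Libraries were not paired because replicate numbers are not stated to pair animals. The deviations of same-numbered libraries correlated at 0.03, 0.03, 0.12 and −0.15. With the replicate block 353 genes were higher, 211 lower and 0 members called. Counts under 200 limit Snhg3 and Snhg5 in all libraries. They also limit Snhg6 and Snhg12 in some, where the lowest counts were 154 and 106.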
